A study of Homo sapiens with 15 samples.

Results

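The 9 genes that encode the NOTCH receptors (NOTCH1, NOTCH2, NOTCH3 and NOTCH4) and their membrane-bound ligands (JAG1, JAG2, DLL1, DLL3 and DLL4) were followed across 9 human lymphoid cell lines. They were chosen by name, and all 9 were measured, by 25 of the 54613 probe sets of the array other than controls. Each gene was represented by its brightest probe set on average, among probe sets annotated with that symbol alone, and they are 9 of the 19775 genes tested in this way. Total RNA was hybridised to Affymetrix U133 Plus 2.0 arrays, and the values are log2 signals in which 1 unit is a doubling. They allow a gene to be compared between lines, whereas the signals of different probe sets are not on one scale. The 15 arrays cover 6 lines of classical Hodgkin lymphoma: L428, L1236, KM-H2 and HDLM2 with 2 arrays each, and L540 and L540Cy with 1 each. The other 5 arrays are Reh, a B cell acute lymphoblastic leukaemia line, Namalwa, a Burkitt lymphoma line, both with 2 arrays, and SU-DHL-4, from a non-Hodgkin lymphoma of B cells, with 1. These 3 are called the non-Hodgkin lines. The labels name no treatment, and each line is an established culture grown from 1 patient's tumour cells. L428, L1236 and KM-H2 are known as B cell derived, HDLM2 and L540 as T cell derived, and L540Cy as a subline of L540, so the 5 Hodgkin lines of origin mix lineages whereas the 3 non-Hodgkin lines are all of B lineage.

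NOTCH receptors are single-pass membrane proteins that are cleaved in transit to the cell surface and cleaved again after a ligand on a neighbouring cell binds them. The second round of cleavage, by an ADAM protease and then by gamma-secretase, frees the intracellular domain, which enters the nucleus and joins the DNA-binding protein RBPJ and a Mastermind-like coactivator to switch on target genes. In lymphocytes NOTCH1 is best known for committing progenitors to the T lineage, and NOTCH2 for the formation of marginal zone B cells.

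The labels were checked against markers. Mean log2 signals of 4 Hodgkin and Reed-Sternberg cell markers (TNFRSF8, FUT4, CCL17 and CCR7) lay between 9.48 and 12.76 in the Hodgkin arrays and between 5.27 and 5.90 in the non-Hodgkin arrays. The same mean over 5 B cell markers (CD79A, CD79B, MS4A1, CD22 and PAX5) lay between 5.57 and 6.68 in the Hodgkin arrays and between 9.71 and 11.50 in the others. Single markers departed from this. CCL17 in L540 lay within the range of the non-Hodgkin arrays (5.85 to 6.62), and in L540Cy it was at 7.34. PAX5 was at 10.99 and 10.63 in L1236, near the non-Hodgkin arrays (10.78 to 12.10), and at 7.38 and 7.04 in KM-H2. MS4A1 was at 4.12 in Reh replicate 2, within the range of the Hodgkin arrays (3.96 to 4.74), and at 11.47 in Reh replicate 1. In Namalwa it was at 7.98 and 7.04, against 12.48 in SU-DHL-4. Of 6 T cell markers, CD2 was at 11.30 and 10.19 in HDLM2 and 6.70 in L540, against 4.52 to 5.38 in the other arrays, and CD3D was at 8.75 and 8.44 in KM-H2. CD3E stayed between 4.95 and 6.03 and CD3G between 4.08 and 5.22 in every array, HDLM2 and L540 included. Of 5 endothelial markers, CDH5 (3.80 to 4.15) and KDR (3.86 to 4.30) were low on all 15 arrays, and PECAM1 was highest in L1236 (7.72 and 7.18) and Namalwa replicate 2 (6.98). The array labelled Reh replicate 1 stood apart. Over 22 genes that were over 3 log2 higher in SU-DHL-4 than in every other array with that one set aside, the median of its excess over Reh replicate 2 was 3.995 log2. The main comparisons that involve Reh are therefore also given without it.

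Among the lines, 5 of the 9 genes differed in expression beyond the spread of duplicate arrays: NOTCH1, NOTCH2, NOTCH4, JAG1 and JAG2. Their line means spanned 1.74, 5.08, 4.18, 4.02 and 2.96 log2. NOTCH3, DLL1, DLL3 and DLL4 spanned 0.43, 0.28, 0.80 and 0.33 log2 in their representing probe sets and did not pass. The test was limma's moderated F over 9 line means, with p-values adjusted by Benjamini-Hochberg over all genes, and a gene was called at an adjusted p under 0.05. In that test 51.9% of all genes were called, so a share of 5 in 9 is near the background. Within the 6 Hodgkin lines the same 5 genes passed, against 43.9% of all genes. Of the 324 pairwise comparisons of lines over the 9 genes, 83 were called, against 20.2% of such comparisons over all genes. By pair, that share ran from 1.49% for L540 against L540Cy to 27.9%. The residual spread has 6 degrees of freedom, all from the 6 duplicated lines, and the fit takes it to hold for the 3 others. Duplicates differed over all genes with an SD per array of 0.17 to 0.26 log2 in Hodgkin lines, 0.44 log2 in Reh and 0.37 log2 in Namalwa.

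**Figure D1:**
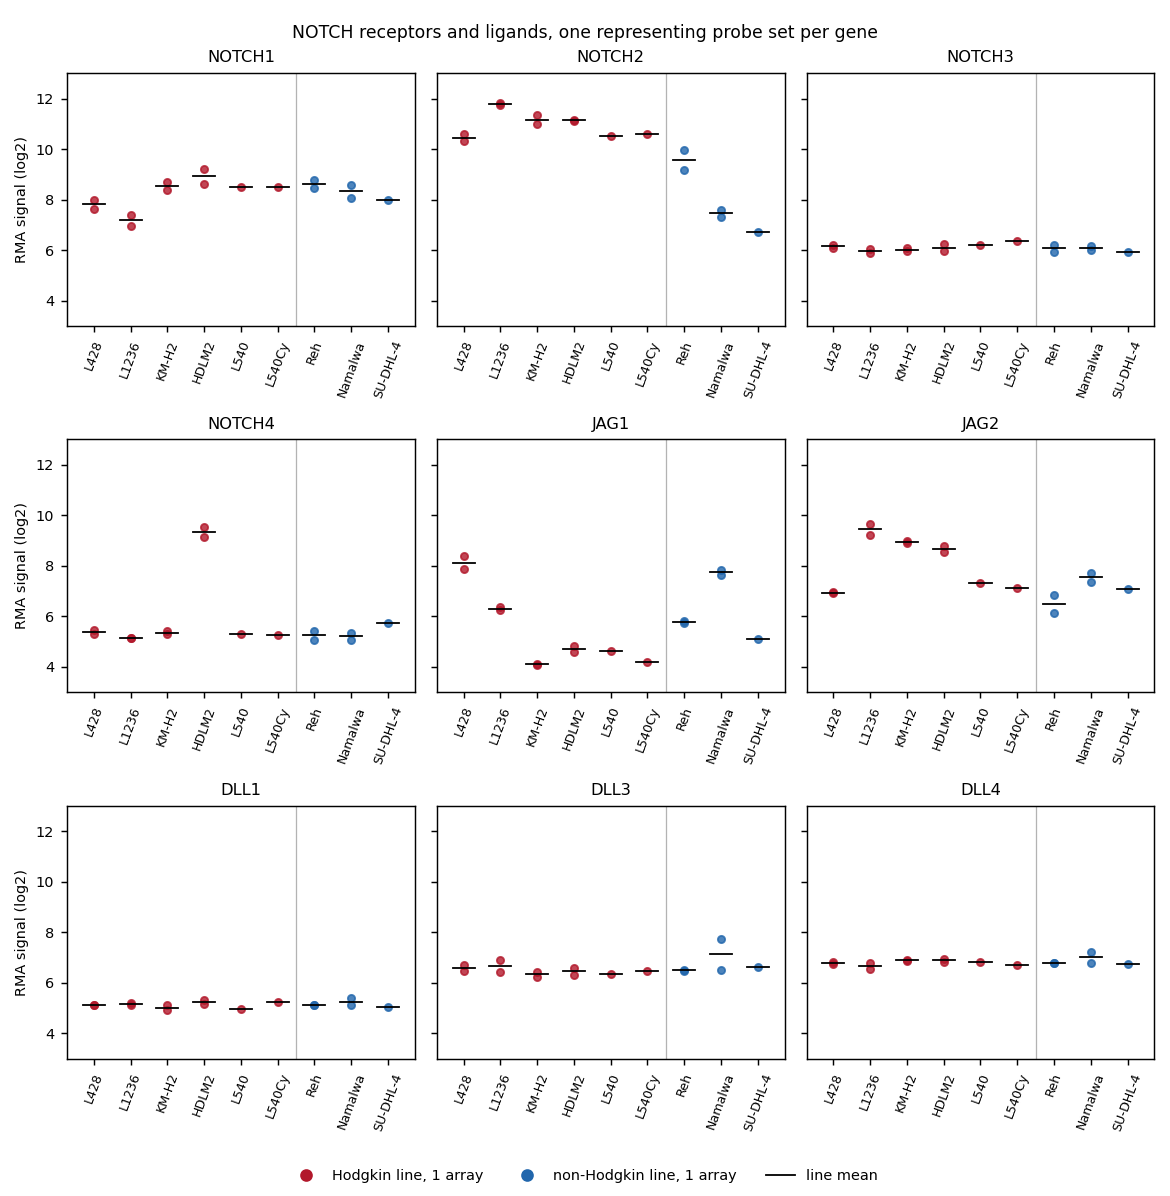
Log2 RMA signal of each of the 9 NOTCH receptor and ligand genes (panels, same vertical axis) by cell line; a point is 1 array, a bar is the line mean, and the grey line separates Hodgkin lines (red) from non-Hodgkin lines (blue). NOTCH2 spans 6.70 to 11.81, NOTCH4 stands out in HDLM2 at 9.14 and 9.54, and NOTCH3, DLL1, DLL3 and DLL4 are nearly level in the probe sets shown. Heights are comparable within a panel, not between panels.

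Between the disease classes, none of the 9 genes was called by limma, against 1.37% of all 19775 genes (271 genes, 150 higher and 121 lower in Hodgkin lines). NOTCH2 alone had an unadjusted p under 0.05. This comparison used 8 lines of origin, with the arrays of a line averaged and L540 averaged with L540Cy, so that 5 Hodgkin lines stood against 3. Differences are given as Hodgkin minus non-Hodgkin. The median difference of the 9 genes was -0.02 log2, the same as over all genes tested.

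**Figure D2:**
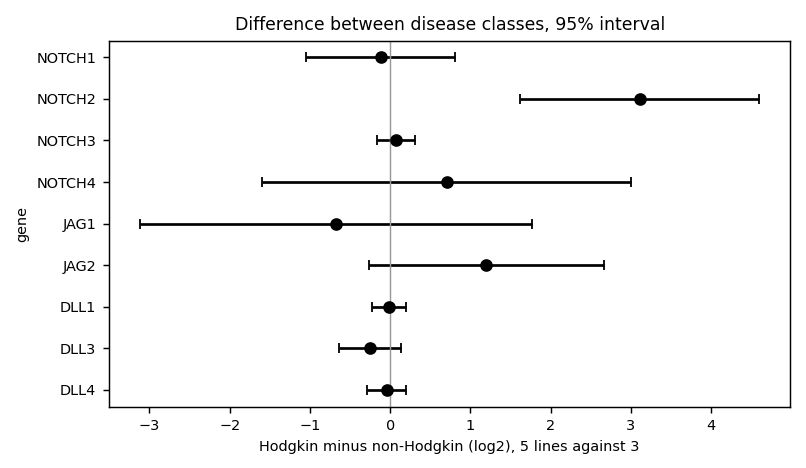
Hodgkin minus non-Hodgkin difference (log2, horizontal axis) of the 9 genes over 5 Hodgkin and 3 non-Hodgkin lines of origin, with 95% intervals from limma. The interval of NOTCH2, from 1.62 to 4.60, is the one that does not reach 0 before adjustment over all genes, and those of NOTCH4 and JAG1 are wide, with 1 or a few lines high within a class.

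NOTCH2, the receptor required for marginal zone B cells, was highest in the Hodgkin lines. Its log2 signals were 10.58 and 10.30 in L428, 11.81 and 11.74 in L1236, 11.35 and 10.98 in KM-H2, 11.17 and 11.12 in HDLM2, 10.52 in L540 and 10.59 in L540Cy. They were 9.17 and 9.97 in Reh, 7.58 and 7.33 in Namalwa and 6.70 in SU-DHL-4. All 10 Hodgkin arrays were above all 5 others, with Reh lying between the Hodgkin lines and the pair of mature B lymphoma lines. The mean over lines of origin was 11.02 ± 0.54 (SD, n = 5) in Hodgkin and 7.91 ± 1.49 (SD, n = 3) in non-Hodgkin lines. The difference was 3.11 ± 0.64 log2 (SE), 8.64-fold, with a 95% interval of 1.62 to 4.60. It missed the threshold in the limma fit (adjusted p = 0.0738), and without Reh replicate 1 it was 2.98 log2 (limma, adjusted p = 0.133). It passed without the line Reh (3.94 log2, limma adjusted p = 0.0114) and without Reh replicate 2 (3.24 log2, limma adjusted p = 0.0360). The second of these fits represents Reh by replicate 1 alone, the array that stood apart in the markers. Against the 3 non-Hodgkin lines, the 3 Hodgkin lines known as B cell derived gave a difference of 3.22 ± 0.81 log2 (SE; limma, adjusted p = 0.205). NOTCH2 was the single member whose line means did not overlap between classes. Over all genes 10.7% did not overlap, 5.17% with every Hodgkin line above.

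In descending order NOTCH2 ran L1236, KM-H2, HDLM2, L540Cy, L540, L428, Reh, Namalwa and SU-DHL-4. The neighbours that differed were L428 over Reh (0.88 log2, limma adjusted p = 0.0315) and Reh over Namalwa (2.11 log2, limma adjusted p = 3.9530e-04). Reh was lower than 5 of the 6 Hodgkin lines. L540 was the exception (limma, adjusted p = 0.0636). Without Reh replicate 1, Reh was lower than L1236, KM-H2 and HDLM2, and no longer than L428 (0.48 log2 lower, limma adjusted p = 0.185) or L540Cy. Namalwa and SU-DHL-4 were each lower than the 7 other lines, and the difference of 0.75 log2 between them was not called (limma, adjusted p = 0.195). Within the Hodgkin lines, L1236 exceeded L428 by 1.33 log2 (limma, adjusted p = 0.00432), L540 by 1.25 log2 and L540Cy by 1.19 log2.

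The remaining 3 NOTCH2 probe sets followed the representing one over the 15 arrays, with r of 0.99, 0.97 and 0.87 as a description, since they were read on the same arrays. Their class differences were 3.39, 2.01 and 1.11 log2, and none of the 4 was called when every probe set was tested on its own (limma, adjusted p = 0.0912, 0.0676 and 0.162, and 0.0786 for the representing one). The share called in that fit was 1.08% of 54613. NOTCH2 has partial human copies, the NOTCH2NL genes, and the representing probe set carries the suffix of sets that can bind related transcripts. A probe set annotated with both NOTCH2 and NOTCH2NL differed by 1.95 log2, and one annotated with NOTCH2NLA alone by 1.65 log2. The second of these was called (limma, adjusted p = 0.0426). How much of the NOTCH2 signal comes from these copies was not tested.

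**Figure D3:**
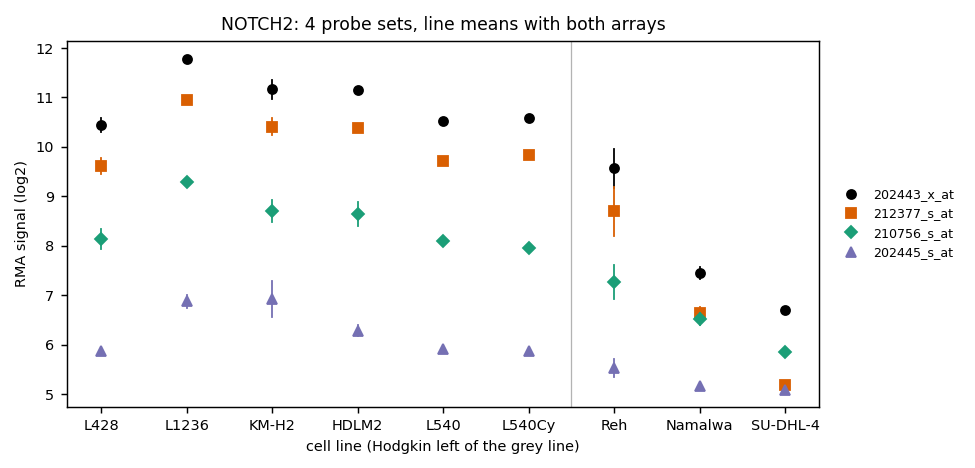
Log2 RMA signal of the 4 NOTCH2 probe sets (colours and symbols) by cell line; symbols are line means and vertical lines join both arrays where a line has 2. All 4 are lower in Namalwa and SU-DHL-4 than in the Hodgkin lines, with class differences between 1.11 and 3.39 log2.

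NOTCH4, known mainly as an endothelial receptor, was high in 1 line. HDLM2 measured 9.14 and 9.54, and the other 13 arrays lay between 5.08 and 5.76, so that no other line came near it. The second highest line was SU-DHL-4 at 5.76, so that HDLM2 exceeded it by 3.58 log2. HDLM2 was higher than each of the 8 other lines, by 3.58 to 4.18 log2 (limma, highest adjusted p = 3.2421e-06), and no other pair of lines differed. The class difference was 0.70 ± 0.98 log2 (SE; limma, adjusted p = 0.781), and -0.11 log2 without HDLM2. NOTCH4 has a second probe set, which did not follow the first (r = -0.17 over 15 arrays). It read 5.40 ± 0.11 (SD, n = 2) in HDLM2 and ranged over 0.43 log2 among line means, so the HDLM2 signal was seen with 1 of 2 probe sets. The endothelial list as a whole (5 of 5 markers measured) had means of 5.01 to 5.47 in the Hodgkin arrays, with HDLM2 at 5.07 and 5.04.

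The promoters of NOTCH2 and NOTCH4 are shown because these receptors had the widest ranges among lines, NOTCH2 high in all Hodgkin lines and NOTCH4 in 1. Each is the 250 bases before the start of transcription in RefSeq (GRCh38.p14), 5′ to 3′ on the gene's own strand. Capitals mark matches on either strand to the SP1 core GGGCGG, the AP-1 motif TGANTCA or the NF-kB motif.
NOTCH2, chr1:120069663-120069912, minus strand: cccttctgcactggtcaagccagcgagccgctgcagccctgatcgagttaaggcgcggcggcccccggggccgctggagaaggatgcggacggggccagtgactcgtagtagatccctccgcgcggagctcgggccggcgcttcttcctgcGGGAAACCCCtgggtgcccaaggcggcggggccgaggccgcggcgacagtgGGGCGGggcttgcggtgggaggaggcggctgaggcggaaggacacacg
NOTCH4, chr6:32224068-32224317, minus strand: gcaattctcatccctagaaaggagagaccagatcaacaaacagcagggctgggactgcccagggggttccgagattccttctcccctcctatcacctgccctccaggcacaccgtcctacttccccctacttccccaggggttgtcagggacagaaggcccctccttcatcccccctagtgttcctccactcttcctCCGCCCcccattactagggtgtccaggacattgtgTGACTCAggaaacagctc
The NOTCH2 stretch holds 29 CpG dinucleotides, with 1 NF-kB match starting 99 bases and 1 SP1 match starting 48 bases before the start. The NOTCH4 stretch holds 3 CpG dinucleotides, against a median of 11 over all promoters, with 1 AP-1 match at 18 bases and 1 SP1 match at 53 bases. Of 35116 promoter windows of this length, 5.21% held an NF-kB match, 6.57% an AP-1 match and 42.6% an SP1 match. The RBPJ core TGGGAA, on either strand, was in none of the 7 members' windows in the table and in 20.8% of all windows. These are letter matches, not measured binding, and the arrays do not bear on them.

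NOTCH1, the receptor of T lineage commitment, differed among lines, with its extremes both in Hodgkin lines. Its log2 signals were 7.99 and 7.62 in L428, 6.94 and 7.41 in L1236, 8.71 and 8.40 in KM-H2, 9.23 and 8.60 in HDLM2, 8.49 in L540 and 8.50 in L540Cy. They were 8.76 and 8.44 in Reh, 8.57 and 8.08 in Namalwa and 7.99 in SU-DHL-4. The classes overlapped, and L1236 was lowest and HDLM2 highest. The class difference was -0.12 ± 0.40 log2 (SE; 95% interval -1.05 to 0.81; limma, adjusted p = 0.920). L1236 was lower than 6 of the 8 other lines, the exceptions being L428 and SU-DHL-4, and HDLM2 was also higher than L428 by 1.11 log2 (limma, adjusted p = 0.0155). No neighbours in the order of lines differed. The F test over lines (limma, adjusted p = 0.00879) was lost without L1236 replicate 1 (adjusted p = 0.0538), and the second NOTCH1 probe set was not called (range 0.50 log2; limma F, adjusted p = 0.887).

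NOTCH3, a receptor best known from vascular smooth muscle, was level. Its 10 Hodgkin arrays ran from 5.88 through a median of 6.10 to 6.36, and the 5 others from 5.93 through 6.03 to 6.22. The classes overlapped, with a difference of 0.07 ± 0.10 log2 (SE), and no pair of lines differed. Its second probe set spanned 0.39 log2 over the lines.

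JAG1, a ligand that NOTCH receptors bind on neighbouring cells, was high in L428 and Namalwa, 1 line of each class. Its log2 signals were 8.38 and 7.88 in L428, 6.36 and 6.26 in L1236, 4.09 and 4.13 in KM-H2, 4.84 and 4.58 in HDLM2, 4.62 in L540 and 4.20 in L540Cy. They were 5.83 and 5.73 in Reh, 7.85 and 7.64 in Namalwa and 5.10 in SU-DHL-4. L428 and Namalwa stood above all other lines, L1236 and Reh, in each of its arrays, were intermediate, and KM-H2, HDLM2, L540 and L540Cy were lowest. L428 and Namalwa were each higher than 7 of 8 lines, that is all but one another. The gap between Namalwa and L1236, 1.44 log2, was the one step between neighbours that was called (limma, adjusted p = 2.7824e-04). From the highest to the lowest line the signal differed 16.2-fold, and 26 of 36 pairs were called. The classes overlapped, with a difference of -0.67 ± 1.05 log2 (SE; limma, adjusted p = 0.804), which became 0.10 log2 without Namalwa and -1.32 log2 without L428. Of the 5 other JAG1 probe sets, 3 followed this one over the arrays (r = 0.96, 0.92 and 0.74). Namalwa stood out less in the latter 2 of these. In the set with r = 0.92 it read 5.54 and 4.24 and was higher than 2 lines. In the set with r = 0.74 its mean was 4.34, higher than no line, and the F test over lines was not called (limma, adjusted p = 0.0733). The 2 probe sets that did not follow were level, with line means within 0.28 and 0.72 log2.

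JAG2, the second Jagged ligand, was high in L1236, KM-H2 and HDLM2. Its log2 signals were 6.92 and 6.96 in L428, 9.23 and 9.66 in L1236, 8.96 and 8.89 in KM-H2, 8.78 and 8.54 in HDLM2, 7.32 in L540 and 7.13 in L540Cy. They were 6.84 and 6.13 in Reh, 7.71 and 7.38 in Namalwa and 7.10 in SU-DHL-4. The arrays of the 3 high lines lay above those of every other line. In the order of lines HDLM2 exceeded Namalwa, the next below, by 1.11 log2 (limma, adjusted p = 0.00646), and no other neighbours differed. Each of the 3 was higher than each of the 6 lines below them. Reh was the lowest and was lower than Namalwa by 1.06 log2 (limma, adjusted p = 0.0159), and without Reh replicate 1 by 1.41 log2. Over the other lines, Reh minus the line ran from -2.96 log2 (L1236) to -0.45 log2 (L428). Without Reh replicate 1 it ran from -3.31 to -0.81 log2, with the same lines at the ends. The class difference was 1.20 ± 0.63 log2 (SE; limma, adjusted p = 0.447), and the classes overlapped because L428, L540 and L540Cy lay among the non-Hodgkin lines. Both JAG2 probe sets showed the same order of high lines (r = 0.98 over 15 arrays).

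The Jagged ligands were thus high in different lines. L428 combined the highest JAG1 with one of the lowest JAG2 signals, and KM-H2 the lowest JAG1 with the second highest JAG2 signal. Their promoters are shown for this contrast, in the same window, with SP1 matches in capitals and no match to the other motifs.
JAG1, chr20:10674000-10674249, minus strand: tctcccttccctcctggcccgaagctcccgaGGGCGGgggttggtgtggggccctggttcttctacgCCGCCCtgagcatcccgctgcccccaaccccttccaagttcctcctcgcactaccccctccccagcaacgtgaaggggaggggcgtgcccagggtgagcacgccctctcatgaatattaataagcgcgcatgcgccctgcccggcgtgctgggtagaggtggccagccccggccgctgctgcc
JAG2, chr14:105168777-105169026, minus strand: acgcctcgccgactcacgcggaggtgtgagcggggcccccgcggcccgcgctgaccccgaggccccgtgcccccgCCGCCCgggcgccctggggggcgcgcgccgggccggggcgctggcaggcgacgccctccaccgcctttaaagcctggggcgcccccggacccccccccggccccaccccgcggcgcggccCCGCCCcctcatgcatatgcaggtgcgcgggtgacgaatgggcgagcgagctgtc
Both hold 2 SP1 matches. JAG1 has 17 CpG dinucleotides and a GC content of 68.4%, and JAG2 has 38 CpG dinucleotides and a GC content of 81.6%, against medians of 11 and 58% over all promoters.

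The Delta-like ligands looked level in their representing probe sets, but other probe sets of DLL1 and DLL3 did not. DLL4, a ligand of vessels and of the thymus with 1 probe set, ran from 6.56 through a median of 6.82 to 6.95 in the Hodgkin arrays and from 6.73 through 6.79 to 7.22 in the others, and no pair of lines differed. DLL1, a ligand that supports lymphocyte development, ran from 4.90 to 5.32 and from 5.05 to 5.39 in its representing probe set. DLL3, a divergent member that acts inside the cell, ran from 6.21 to 6.90 and from 6.47 to 7.73, the top value being Namalwa replicate 2. The class differences were -0.04, -0.02 and -0.26 log2, and in all 3 genes the classes overlapped.

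A second DLL1 probe set, whose mean was only 0.08 log2 lower, was high in L1236 (8.19 and 8.68) and Reh (6.75 and 7.51). The other 11 arrays lay between 3.43 and 5.49. L1236 exceeded the 7 lines other than Reh by 3.47 to 4.85 log2 (limma over all probe sets, highest adjusted p = 4.0758e-04), and Reh exceeded the 7 lines other than L1236 by 2.16 to 3.55 log2 (highest adjusted p = 0.00505). Without Reh replicate 1 the differences of Reh from those lines were 2.54 to 3.93 log2, and all 7 were called. L1236 and Reh belong to different classes, and the class difference of this probe set was 0.01 log2.

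A DLL3 probe set was high in Namalwa (7.66 and 7.89), and the other 13 arrays lay between 5.02 and 5.89. Namalwa exceeded each of the 8 other lines by 1.88 to 2.70 log2 (limma over all probe sets, highest adjusted p = 0.00398), and all 8 were still called without Namalwa replicate 2. Another DLL3 probe set read 8.33 ± 1.17 (SD, n = 2) in Namalwa, above 6 of the 8 other lines. Its duplicates were far apart, at 7.50 and 9.15. When every probe set was tested on its own, 14 of the 25 member probe sets were called in the F test over lines, against 39.7% of all probe sets, and the 14 included 1 of DLL1 and 2 of DLL3. These probe sets were described after their values were seen. Which transcripts each reads was not analysed here.

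**Figure D4:**
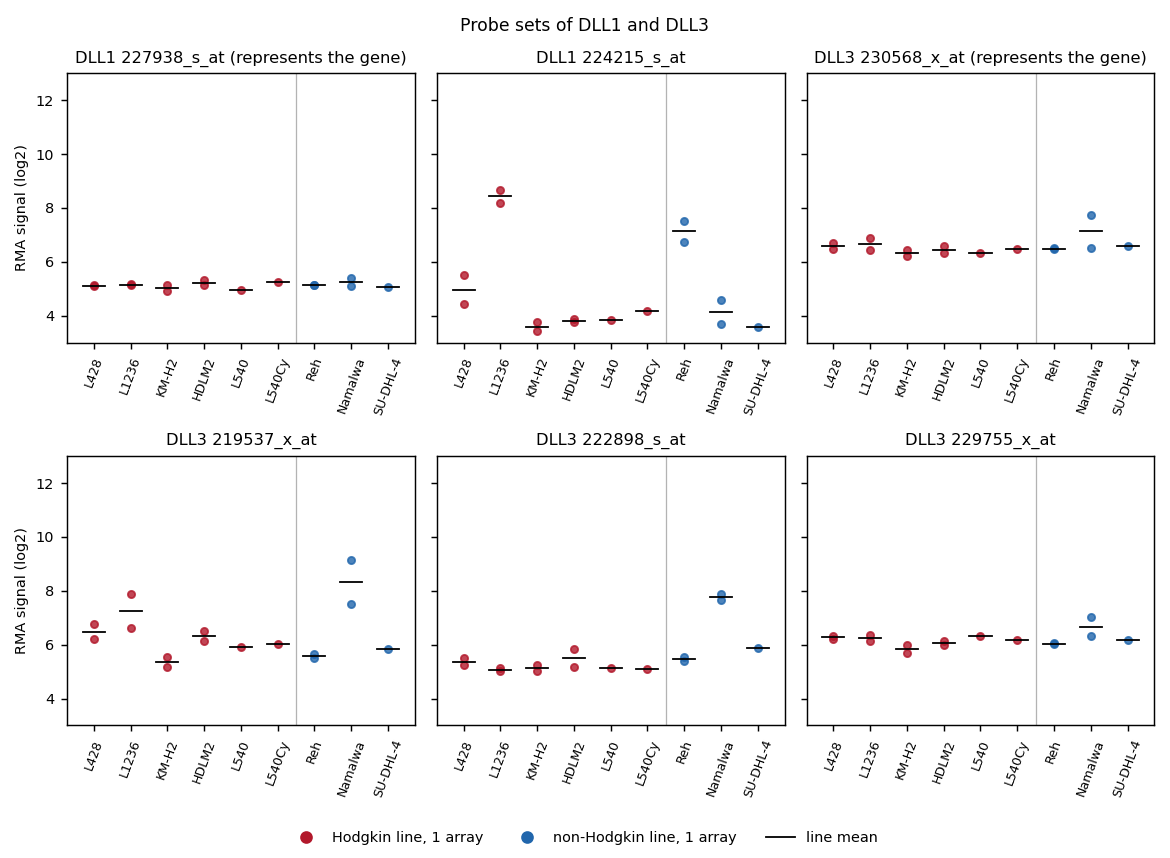
Log2 RMA signal of the 2 probe sets of DLL1 and the 4 of DLL3 (panels, same vertical axis) by cell line; points are arrays and bars line means, with Hodgkin lines in red and non-Hodgkin lines in blue. The representing probe sets are level, whereas the second DLL1 probe set is high in L1236 and Reh and the DLL3 probe set in the middle of the lower row reaches 7.66 and 7.89 in Namalwa.

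Read by line, the 9 genes gave different combinations. Ranks here are of line means. Apart from NOTCH4 in HDLM2, no highest or lowest line of a gene was called different from its neighbour in the order. In the second DLL1 probe set L1236 was not called different from Reh (limma over all probe sets, adjusted p = 0.0549). L1236 had the highest NOTCH2 and JAG2 signals and the lowest NOTCH1 signal, with the second DLL1 probe set also highest there. HDLM2 was highest for NOTCH1 and NOTCH4 and ranked 3 of 9 for NOTCH2 and JAG2. KM-H2 ranked 2 of 9 for NOTCH2 and JAG2 and was lowest for JAG1. L428 led for JAG1 and ranked 8 of 9 for JAG2. L540 and its subline L540Cy lay next to each other in NOTCH1, NOTCH2, JAG1 and JAG2, and no member differed between them. The largest difference between these 2 arrays was 0.42 log2, in JAG1. Namalwa ranked 2 of 9 for JAG1 and 8 of 9 for NOTCH2, and SU-DHL-4 was lowest for NOTCH2. Across the 8 lines of origin, as a description, NOTCH2 had a Pearson r of 0.58 with JAG2 and -0.24 with JAG1, and JAG1 had -0.28 with JAG2.

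For members whose lines of origin spanned at least 2 log2, the genes with the most similar line means were listed among 4820 genes with such a span (Pearson r over 8 lines, with no test). For NOTCH2 they were TNF (0.98), an inflammatory cytokine, FUT4 (0.98), the fucosyltransferase that makes the CD15 antigen, and IFIH1 (0.97), a sensor of viral RNA. For NOTCH4 they were HSBP1L1, SPESP1 and PRF1 (0.99 each), of which PRF1 encodes the pore-forming perforin of cytotoxic lymphocytes. Those values rest on HDLM2 alone standing high. For JAG1 they were TMX4 (0.96), LNP1 (0.95) and EYA4 (0.94), and for JAG2 LMCD1 (0.96), HOXC6 (0.94) and TMPRSS3 (0.92). Picking the closest of so many genes over 8 points gives high values for any gene.

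The remaining genes of the pathway were taken from 7 lists, of which 48 genes were measured. Between the classes 1 was called higher in Hodgkin lines, 2 were called lower and 45 were not called, against 0.759% higher and 0.612% lower over all genes. Their median difference was -0.03 log2. Over the 9 lines, 35 of the 48 were called in the F test, against 51.9% of all genes.

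Among 8 genes of receptor processing none was called, and the median difference was 0.32 log2. The largest differences were 1.85 ± 0.45 log2 (SE) in PSEN2, a catalytic subunit of gamma-secretase (limma, adjusted p = 0.121), and 0.58 ± 0.44 log2 in FURIN, the protease that cleaves the receptor in transit. With the Hodgkin lines known as B cell derived only, they were 1.82 log2 in PSEN2 and 0.01 log2 in FURIN. Among 5 genes of receptor glycosylation none was called (median 0.28 log2). POGLUT1, which adds glucose to the receptor, differed by 1.08 log2 (0.41 log2 without SU-DHL-4), and MFNG, a Fringe enzyme that shifts the receptor between ligands, by -2.07 log2 (-1.01 log2 without L428), with L428 at 4.99 and the other Hodgkin lines between 9.55 and 10.70. Among 5 genes of ligand endocytosis none was called (median -0.26 log2). The ubiquitin ligases MIB1 and NEURL1B differed by -0.96 and -1.01 log2. Reh was the highest line for each. Without that line the MIB1 difference was smaller, at -0.48 log2, and that of NEURL1B changed sign, at 0.69 log2. Without Reh replicate 1 alone they were -1.19 and -1.16 log2. Among 8 genes of receptor turnover and inhibition none was called (median -0.05 log2), with ITCH at 0.71 log2 and FBXW7, which marks the intracellular domain for degradation, at -0.55 log2.

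Of 7 genes of the nuclear complex, 1 was called. MAML2, a Mastermind-like coactivator, was higher in Hodgkin lines by 5.10 ± 0.88 log2 (SE; limma, adjusted p = 0.0451). Its line means were 10.04 in L428, 9.71 in L1236, 8.97 in KM-H2, 10.82 in HDLM2, 10.01 in L540 and 10.14 in L540Cy, against 7.23 in Reh, 3.79 in Namalwa and 3.44 in SU-DHL-4. As with NOTCH2, Reh lay between the Hodgkin lines and the other pair. Without Reh replicate 1 the call was lost, at 4.85 log2 (limma, adjusted p = 0.0936), as it was among lines known as B cell derived, at 4.75 log2 (limma, adjusted p = 0.172). The DNA-binding partner RBPJ, named after its values were seen, differed by 0.59 ± 0.43 log2.

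Of 4 Deltex genes, which encode ubiquitin ligases that bind NOTCH receptors, 2 were called, both lower in Hodgkin lines (median of the list -1.15 log2). DTX1 was at 6.27 in L428, 6.68 in L1236, 5.88 in KM-H2, 5.89 in HDLM2, 6.47 in L540 and 6.44 in L540Cy, against 9.98 in Reh, 10.58 in Namalwa and 10.57 in SU-DHL-4. It was lower in Hodgkin lines by 4.14 ± 0.24 log2 (SE; limma, adjusted p = 3.5847e-04). The mean over the B cell markers was also low in the Hodgkin arrays, so class and B cell marker level cannot be told apart here. Whether DTX1 follows those markers was not tested. L1236, where PAX5 was high, had the highest DTX1 mean of the Hodgkin lines, 6.68, still below every non-Hodgkin line. Among the lines known as B cell derived DTX1 was lower in Hodgkin lines by a similar amount, with a difference of -4.10 ± 0.28 log2 (SE; limma, adjusted p = 0.00734). DTX4 was lower by 2.17 ± 0.39 log2 (limma, adjusted p = 0.0499), just inside the threshold, and without Reh replicate 1 the difference was -1.96 log2 and was not called (adjusted p = 0.170). Among lines known as B cell derived it was -2.18 log2 and not called (limma, adjusted p = 0.176). Nor was DTX4 called when any single line other than Reh was left out.

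Of 13 target genes 1 was called, DTX1, which is also a Deltex gene, and the median difference was -0.06 log2. HES1 and HEY1, the transcriptional repressors most often read as NOTCH targets, are given after their values were seen. HES1 was highest in L540Cy (8.23) and lowest in L1236 (4.74), and HEY1 was highest in L540Cy (10.51) and lowest in Reh, with a line mean under 6. Both differed over the lines (limma F, adjusted p = 8.6145e-04 and 1.2272e-05), and neither was called between the classes, with differences of 0.37 ± 0.72 and 1.50 ± 0.88 log2 (SE).

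**Figure D5:**
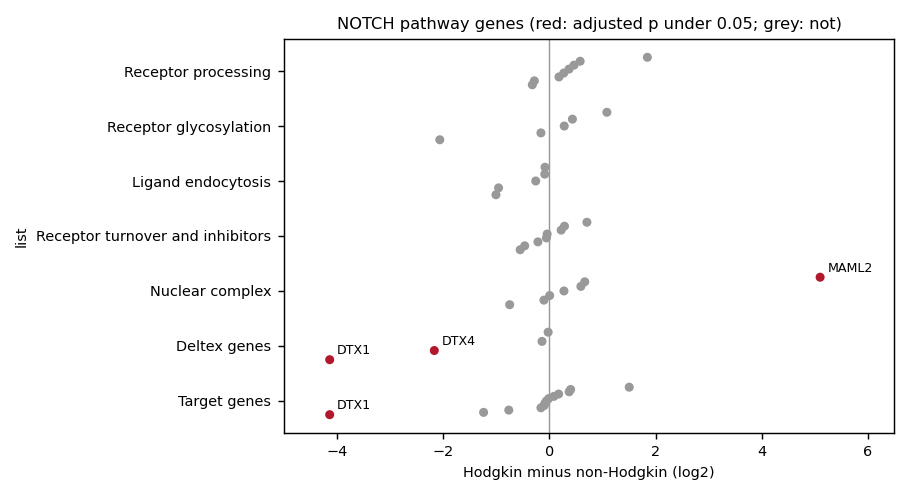
Hodgkin minus non-Hodgkin difference (log2, horizontal axis) of the 48 measured pathway genes by list; a point is a gene, red where limma's adjusted p was under 0.05, and vertical offsets within a list only separate points. MAML2 at 5.10, DTX4 at -2.17 and DTX1 at -4.14 (shown under both of its lists) are the called genes.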

How the data were processed

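The authors deposited 1 log2 signal per probe set and array, made with RMA per the submitters' processing notes. The software, settings and genome build behind them were not given in the sources used here. RMA compresses differences near background, so folds of dim genes are understated. Of 54675 probe sets 62 controls were left out; 41091 had 1 gene symbol, 1801 several and 11721 none listed, and only the first kind was used. Of these, 41037 matched RefSeq by Entrez identifier and 0 were renamed. Array medians lay between 5.50 and 5.56, and the number of arrays limits the precision. Tests were two-sided moderated tests from limma 3.58.1 (R 4.3.3), adjusted by Benjamini-Hochberg over the 19775 genes and called at 0.05, once on the means of 8 lines of origin and once on all 15 arrays with 1 mean per line. Duplicates are biological per the series design text. The fits were tested on simulated data. Members, lists and named genes were chosen with earlier results of these data known: all members were named, and per list up to 3 called genes each way or, with none called, the 2 with the largest difference. Some genes of the lists were not analysed here. Alternatives are in the closing section. Removing Reh replicate 1 from single-pair results, and Namalwa replicate 2 likewise, testing each probe set on its own, the comparison within lines known as B cell derived, and fits of the 12 numbered arrays without a replicate block were chosen after seeing the data.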

Additional observations from a re-analysis of the deposited data

Results flagged for a closer look

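In 20 results with 5 Hodgkin lines of origin, the highest or lowest line was set against the rest. Chance alone flags about 1 in 20 such groups where none was picked by its values. The pathway genes among the 20 were picked as called or with the largest class differences, which 1 extreme line can raise. That rate therefore does not hold for them, and the number flagged cannot be set against it. In 4 of the 20 results 1 line lay far from the others, its gap to the nearest line taking more than 0.71 of the range. NOTCH4 was at 9.34 in HDLM2, with the next Hodgkin line at 5.38. MFNG was at 4.99 in L428, with the next at 9.55. POGLUT1 was at 7.45 in KM-H2, with the next at 8.64. FBXW7 was at 9.76 in KM-H2, with the next at 8.34.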

How the results depend on the processing

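The NOTCH2 class difference kept its direction under all 32 alternatives and passed the threshold under 6 of them. In limma it was 3.03 log2 (adjusted p = 0.0404) with L540 and L540Cy as 2 lines, 3.02 (0.00140) over all arrays with a random block for the line, and 2.62 over the 12 numbered arrays both with a replicate block (0.0268) and without it (0.0125). The last 3 fits set 1 correlation between arrays of a line for all genes (0.57, 0.65 and 0.59), which counts duplicates as partly independent. Whether that value suits NOTCH2 was not tested. The 12 numbered arrays hold no L540, L540Cy or SU-DHL-4. Leaving out a line or an array gave 2.51 to 3.94, with passes without the line Reh (3.94) and without Reh replicate 2 (3.24). The latter keeps, for Reh, only replicate 1, the array that stood apart. In the same order of settings 233, 599, 328 and 416 genes were higher and 191, 475, 243 and 275 lower in Hodgkin lines, and leaving out a line or an array gave 68 to 218 higher and 69 to 181 lower. The count of higher pathway genes was 2 with the random block and 0 to 1 when a line or an array was left out. The count of lower ones was 1 without L540Cy, over the 12 arrays without a replicate block and with arrays centred on their medians, and 1 to 2 when a line or an array was left out. With the Hodgkin lines known as B cell derived only, 69 genes were lower in Hodgkin lines, with 0 pathway genes higher and 1 lower. DTX1 was called under all 32. MAML2 lost its call under 9, with differences of 3.64 to 6.31 log2 over all 32, and DTX4 under 18, with -2.74 to -1.83 log2. Both counts include every fit without a single line other than Reh. The F test over lines lost NOTCH1 without L1236 replicate 1 (adjusted p between 0.00790 and 0.0538 over left-out arrays) and gained DLL3 without Namalwa replicate 1 (between 0.0224 and 0.844). Taking the mean of a gene's probe sets or the most variable one called DLL1 (1.5165e-04 and 5.1274e-05) and DLL3 (1.7669e-04 and 0.0160), since these probe sets differ between lines. Of the 83 pairs, 44 lie among the 6 duplicated lines. Over the 12 arrays all 44 were called without a replicate block, and with it 47, these 44 among them. Leaving out an array gave 73 to 90. Correlations of duplicate differences between lines ran from -0.07 to 0.36; 10 of 15 exceeded 0.1, and the other 5 all involve Namalwa. A shared effect of the number among the remaining lines is a hint from the data, but since not every pair passed, the numbers were not taken to pair the samples. The cause of the other changes was not tested. A filter at a log2 signal of 6 left 13441 genes and dropped DLL1.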
